A study of Arabidopsis thaliana with 8 samples.

Results

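Anthocyanins are the red and purple flavonoid pigments that colour stressed Arabidopsis shoots. The 10 genes described here cover their synthesis and its control: CHS (AT5G13930), F3H (AT3G51240), TT7 (AT5G07990), DFR (AT5G42800), LDOX (AT4G22880), UF3GT (AT5G54060), TT19 (AT5G17220), PAP1 (AT1G56650), PAP2 (AT1G66390) and TT8 (AT4G09820). They are taken by locus code, and the rule for them uses no measured value, though it was set with earlier results of these data known. All 10 were among the 21500 probes of the array, each with 1 probe, and all 10 passed the filter on dim probes, as did 19178 probes in all. To pass, a probe had to be well above background on all 4 arrays of 1 or more of the 4 combinations of treatment and time. Every one of the 10 passed it in the unwounded shoots of 360 min as well as in the wounded ones, so none entered through the wounded shoots alone.

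In the pathway, early enzymes make flavonoid precursors that are shared with colourless flavonols, and late enzymes turn them into coloured anthocyanidins that are then decorated with sugars and acyl groups and moved into the vacuole. The late genes are switched on by a complex of a MYB protein such as PAP1 or PAP2, a bHLH protein such as TT8 and the WD40 protein TTG1. Small MYB proteins such as MYBL2 and the LBD proteins LBD37, LBD38 and LBD39 are known as repressors of the pathway.

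The plants were wild-type seedlings of the Columbia-0 ecotype, 13 days old, grown on agar medium with 3% sucrose at 22 °C in days of 16 h light and 8 h dark. In the wounded groups a razor blade was applied to the primary root 5 mm below the shoot base, and shoots were taken 30 or 360 min later. The control groups were shoots of seedlings with unwounded roots taken at the same times, and no group carried a mutation or transgene. RNA of wounded and control shoots was hybridised together on 8 2-colour Agilent arrays, and the question was how gene expression in the shoot answers root wounding. Each time had 2 biological replicates, and each replicate filled a pair of arrays in opposite dye orientation. The 2 arrays were averaged, so n = 2 unless said otherwise, and each SD is that of 2 replicate values. How many seedlings each RNA held is not given in the labels. In whole shoots, fewer cells of a type and less RNA per cell cannot be told apart.

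The arrays of 30 min were dimmer, with 72.3% to 88.6% of probes well above background in the wounded channel against 89.6% to 94.9% at 360 min. Ratios of the probes that passed the filter, without outlier spots, correlated at 0.685 to 0.817 between arrays of 30 min. Between arrays of 360 min they correlated at 0.355 to 0.699. Of the 10 genes, DFR, LDOX and PAP2 were well above background in 2 of 4 channel measurements of either 30 min condition, and UF3GT in 2 of 4 of the wounded shoots of 30 min. The other measurements of the 10 genes all were, and none was saturated. Of the 8 shoot markers, mostly genes of photosynthesis, all were well above background everywhere. All but 1 of 10 root markers also passed the filter, so most root markers gave signal too. The root iron transporter gene IRT1 was at background in every measurement at 30 min. At 360 min it was well above background in 4 of 4 measurements of control and 2 of 4 of wounded shoots.

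At 30 min, 1 of the 10 genes was called, PAP1, which rose. At 360 min, 8 of the 10 were called and all 8 were higher in wounded shoots: F3H, TT7, DFR, LDOX, UF3GT, TT19, PAP1 and TT8. A call means a Benjamini-Hochberg adjusted p under 0.05 in limma, over all genes tested. By that rule 6.69% of all genes were called at 30 min (4.52% higher and 2.16% lower), and 7.3% at 360 min (3.08% higher and 4.22% lower). The median log2 ratio of wounded over control over the 10 genes was -0.04 at 30 min and 0.90 at 360 min, while that of all genes tested was -0.00 and 0.00. The count of 8 fell to 5 when the 360 min arrays were fitted alone and to 4 on the log ratios of the authors' deposited table, and PAP1 at 30 min was no longer called with either 30 min replicate left out.

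**Figure D1:**
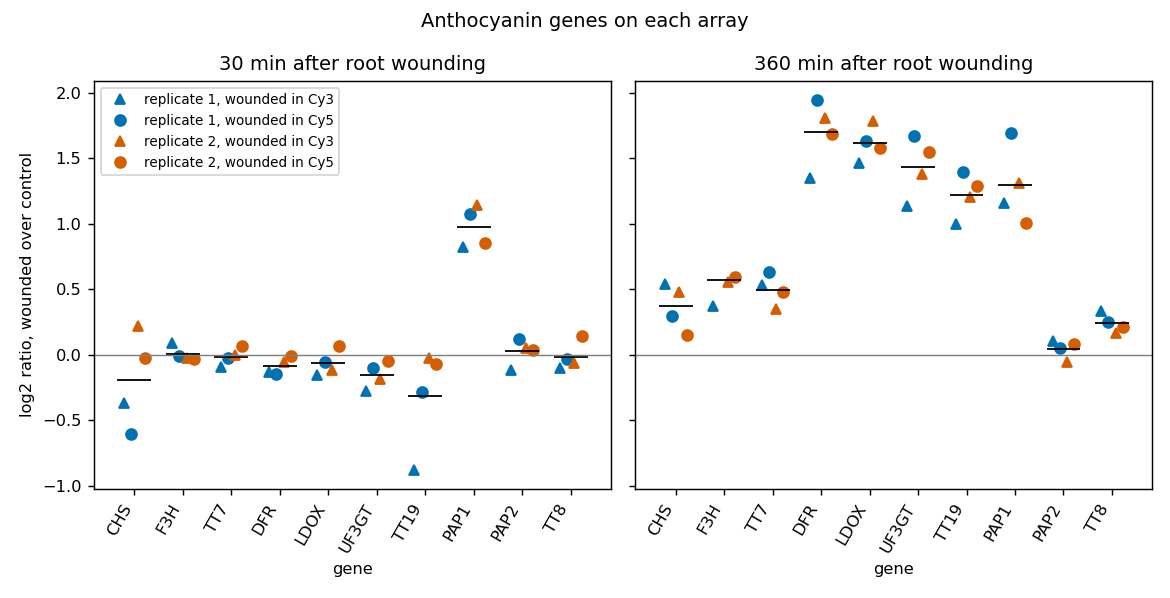
Log2 ratio of wounded over control shoots for the 10 genes on each array, at 30 min (left) and 360 min (right); colour marks the replicate, symbol shape the dye of the wounded RNA, and bars the fitted means (F3H at 360 min rests on replicate 2). PAP1 lies above 0 on all 4 arrays of both times, and DFR, LDOX, UF3GT and TT19 lie above 0 on all 4 arrays at 360 min but on at most 1 at 30 min.

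CHS makes chalcone, the first committed step of all flavonoids. At 30 min its log2 ratio was -0.48 in replicate 1 and 0.10 in replicate 2, so the replicates lay on both sides of 0. At 360 min it was 0.42 and 0.32, above 0 on all 4 arrays, but with a mean of 0.37 ± 0.07 (SD) the adjusted p was 0.183 in limma. The log2 intensity of CHS in control shoots of 30 min was itself uneven, 8.65 in replicate 1 and 7.61 in replicate 2.

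F3H, flavanone 3-hydroxylase, makes dihydroflavonols and also feeds the flavonols. Its log2 ratio was 0.04 and -0.03 in the 30 min replicates. At 360 min it was 0.57 (1.49-fold, n = 1), since 1 array of replicate 1 held an outlier spot and the pair was dropped; the other array of that pair gave 0.37. F3H was called at 360 min (adjusted p = 0.0174, limma), and 3 of 3 arrays with a value were above 0. The call rests on 1 replicate and was lost with the outlier spot kept (0.43, adjusted p = 0.0512).

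TT7 is flavonoid 3'-hydroxylase, which adds the hydroxyl group that separates cyanidin from pelargonidin pigments. At 30 min its log2 ratio was -0.06 and 0.03. At 360 min it was 0.58 and 0.41, a rise of 1.41-fold (0.50 ± 0.12, adjusted p = 0.0112, limma), with both wounded levels above both control levels. The calls of TT7 and F3H were lost when the 360 min arrays were fitted alone, with an adjusted p of 0.0747 for TT7 in limma. They were also lost when either 30 min replicate was left out, where the spread comes from the 360 min replicates alone.

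DFR, dihydroflavonol reductase, starts the branch that leads to anthocyanins. At 30 min its log2 ratio was -0.14 in replicate 1 and -0.03 in replicate 2. At 360 min it was 1.65 and 1.75, and the 4 arrays ranged from 1.35 to 1.95. DFR thus rose 3.24-fold at 360 min (1.70 ± 0.07, 95% interval 1.58 to 1.82, adjusted p = 0.000827, limma). In log2 intensity, on the scale of this probe alone, control shoots of 360 min stood at 6.64 and 6.60 and wounded shoots at 8.29 and 8.35, so the groups were far apart and the replicates close together.

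LDOX, leucoanthocyanidin dioxygenase or anthocyanidin synthase, makes the coloured anthocyanidin from the product of DFR. Its log2 ratio was -0.10 and -0.02 at 30 min. At 360 min it was 1.55 and 1.68, with 4 of 4 arrays between 1.47 and 1.78. LDOX rose 3.06-fold (1.61 ± 0.09, adjusted p = 0.000827, limma), close to the rise of DFR. Its wounded levels at 360 min were 8.06 and 8.46 in log2 intensity against 6.52 and 6.78 in control shoots. The neighbouring locus AT4G22870, annotated on the array as a putative LDOX, had log2 ratios of -0.19 at 30 min and 1.57 at 360 min, and whether the probes of both loci share signal was not tested.

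UF3GT adds xylose to the sugar of the anthocyanin. At 30 min it was slightly lower in wounded shoots in both replicates, at -0.19 and -0.12, which did not pass (adjusted p = 0.125, limma); with a smaller background offset of 10 it was called as lower at -0.34 (adjusted p = 0.0478). At 360 min the log2 ratio was 1.40 and 1.46, a rise of 2.70-fold (1.43 ± 0.05, adjusted p = 0.000827). The replicates of UF3GT differed little, and all 4 arrays lay between 1.13 and 1.67.

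TT19 is a glutathione S-transferase needed to bring anthocyanins into the vacuole. Its 30 min replicates were far apart, with a log2 ratio of -0.58 in replicate 1 and -0.05 in replicate 2. In replicate 1 the array with the wounded RNA in Cy5 gave -0.28 and the one with Cy3 -0.88, and the control level was 8.24 against 6.90 in replicate 2, in log2 intensity. The mean of -0.31 ± 0.38 at 30 min did not pass (adjusted p = 0.281, limma), but without 30 min replicate 2 TT19 was called as lower at -0.58 (adjusted p = 0.0458). At 360 min the values were 1.20 and 1.25, a rise of 2.33-fold (1.22 ± 0.03, adjusted p = 0.00908), which the log ratios of the authors' deposited table did not carry past the threshold (1.49, adjusted p = 0.0617).

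PAP1 (MYB75) is the MYB activator whose overexpression turns Arabidopsis purple. Its log2 ratio at 30 min was 0.95 in replicate 1 and 1.00 in replicate 2, and all 4 arrays lay between 0.82 and 1.14. This was a rise of 1.96-fold (0.97 ± 0.03, 95% interval 0.80 to 1.14, adjusted p = 0.00119, limma), larger than the spread between replicates. It was 0.0587 without 30 min replicate 1 and 0.0648 without 30 min replicate 2, each on 1 remaining replicate with values of 1.00 and 0.95, and the log ratios of the authors' deposited table gave 1.60 (adjusted p = 0.00349). At 360 min the log2 ratio was 1.43 and 1.16, a rise of 2.45-fold (1.29 ± 0.19, adjusted p = 0.00199).

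The PAP1 levels in control shoots were 7.51 and 7.27 at 30 min and 7.33 and 6.79 at 360 min, in log2 intensity. In wounded shoots they were 8.46 and 8.27 at 30 min and 8.76 and 7.95 at 360 min. Wounded levels were thus above all control levels at either time.

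PAP2 (MYB90) is a close relative of PAP1 with the same known role. Its log2 ratio was 0.00 and 0.05 at 30 min and 0.08 and 0.01 at 360 min, and wounded and control levels overlapped at both times. It was not called at either time, and the 95% interval at 360 min was -0.05 to 0.15 in log2 ratio. MYB113 and MYB114, the other MYB genes of this subgroup, had log2 ratios of 0.01 and 0.04 at 360 min and were not called either. Whether the probes of these related MYB genes share signal was not tested.

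TT8 is the bHLH partner of the MYB activators. At 30 min its log2 ratio was -0.07 and 0.04. At 360 min it was 0.29 and 0.19, above 0 on 4 of 4 arrays, a rise of 1.18-fold (0.24 ± 0.07, adjusted p = 0.0456, limma). Wounded and control levels of TT8 overlapped between replicates, and the call was lost in 10 of 14 alternative settings, among them the one without 360 min replicate 1 (0.19, adjusted p = 0.171) and those without either 30 min replicate (adjusted p = 0.116).

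**Figure D2:**
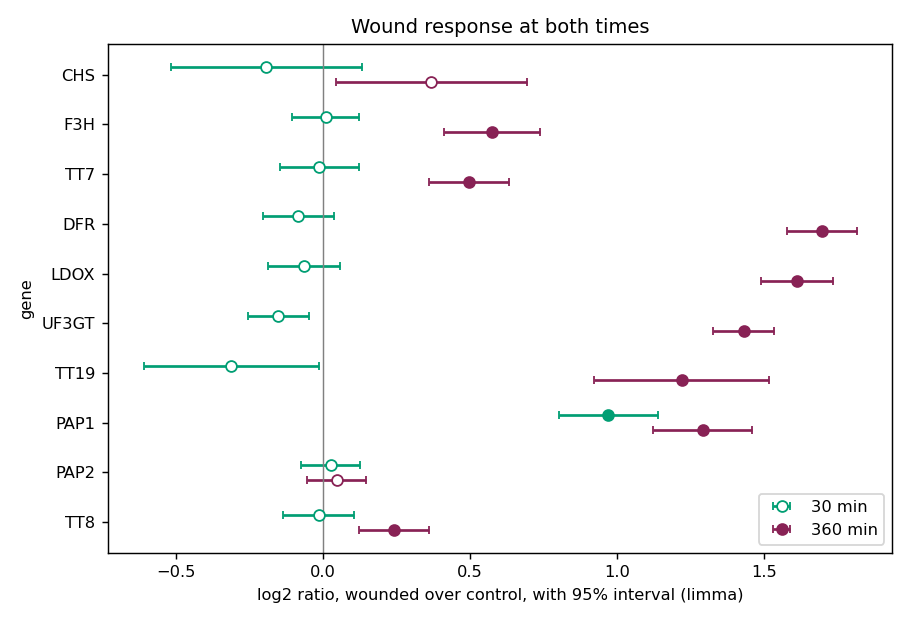
Fitted log2 ratio of wounded over control shoots at 30 and 360 min with its 95% interval from limma, for each of the 10 genes; filled points have an adjusted p under 0.05. At 30 min only PAP1 is filled, at 0.97, and at 360 min DFR reaches 1.70 while PAP2 stays at 0.05.

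The change between the times was tested directly as the difference of the log2 ratios, 360 minus 30 min. It was called for 6 of the 10 genes, all more positive at 360 min, where 7.39% of all genes were called, 2.56% in that direction and 4.83% in the other. The difference was 1.78 for DFR (95% interval 1.61 to 1.95, adjusted p = 0.000384, limma), 1.68 for LDOX (adjusted p = 0.000521) and 1.58 for UF3GT (adjusted p = 0.000378). Over the alternative settings it ranged from 1.35 to 2.60 for DFR, 1.28 to 2.50 for LDOX and 1.27 to 2.26 for UF3GT. DFR, LDOX and UF3GT were dim at 30 min. There the log ratios of the authors' deposited table gave log2 ratios of -0.40, -0.38 and -0.57 for them, which were not called. The size of their difference thus depends on the processing. Among 13 other flavonoid and anthocyanin enzyme genes the difference ranged from -0.87 to 0.88, with a median of 0.34.

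TT19 had a difference of 1.53 (adjusted p = 0.00808, limma), F3H of 0.57 (adjusted p = 0.0232) and TT7 of 0.51 (adjusted p = 0.0195). Those of F3H and TT7 were lost without either 30 min replicate, with adjusted p of 0.134 to 0.175, and on the log ratios of the authors' deposited table (0.0661 and 0.0704). That of F3H rests on 1 replicate at 360 min and was lost with the outlier spot kept (0.42, adjusted p = 0.111). For CHS the difference of 0.56 did not pass (95% interval 0.10 to 1.02, adjusted p = 0.155), and for TT8 it was 0.26 (adjusted p = 0.0937).

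The ratio of PAP1 was already high at 30 min. Its difference between the times was 0.32 (95% interval 0.08 to 0.56, adjusted p = 0.126, limma). The test of that difference passed without 360 min replicate 2, at 0.45 (adjusted p = 0.0146). It was 0.16 (adjusted p = 0.459) with an offset of 10 and 0.01 (adjusted p = 0.973) on the log ratios of the authors' deposited table. For PAP2 the difference was 0.02 (95% interval -0.12 to 0.16).

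The levels of wounded and of control shoots were also compared between the times, each channel on its own. The times lie on different arrays, so array and time cannot be told apart here. In control shoots none of the 10 genes was called between 30 and 360 min in limma, where 2.65% of all genes were, 1.26% higher and 1.38% lower at 360 min. An unadjusted p under 0.05 was reached by 2 of the 10. CHS had a difference in log2 level of 0.76 (95% interval 0.15 to 1.36, adjusted p = 0.24) and UF3GT of 0.59 (0.12 to 1.06, adjusted p = 0.231). CHS was called without 30 min replicate 1 (1.28, adjusted p = 8.33e-06) and with the replicate number as a block (0.76, adjusted p = 0.0367). TT19 was called as lower at 360 min without 30 min replicate 2 (-1.07, adjusted p = 0.00027).

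In wounded shoots 6 of the 10 were called as higher at 360 than at 30 min, against 2.02% of all genes called in that direction and 5.02% in either. The difference in log2 level was 2.17 for UF3GT (adjusted p = 5.07e-08, limma), 1.94 for DFR (adjusted p = 5.18e-07) and 1.84 for LDOX (adjusted p = 2.81e-06). CHS also rose in wounded shoots, by 1.32 (adjusted p = 0.00048), followed by TT19 at 1.14 (adjusted p = 0.00503) and TT7 at 0.90 (adjusted p = 0.0233). The call of TT7 was lost without 30 min replicate 1 (0.75, adjusted p = 0.0511) and without either 360 min replicate, and that of TT19 without 360 min replicate 1 (1.00, adjusted p = 0.198). For PAP1 the difference in wounded shoots was -0.01 and was not called. Its 95% interval of -0.55 to 0.53 is wide, so equal levels at both times are not shown.

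**Figure D3:**
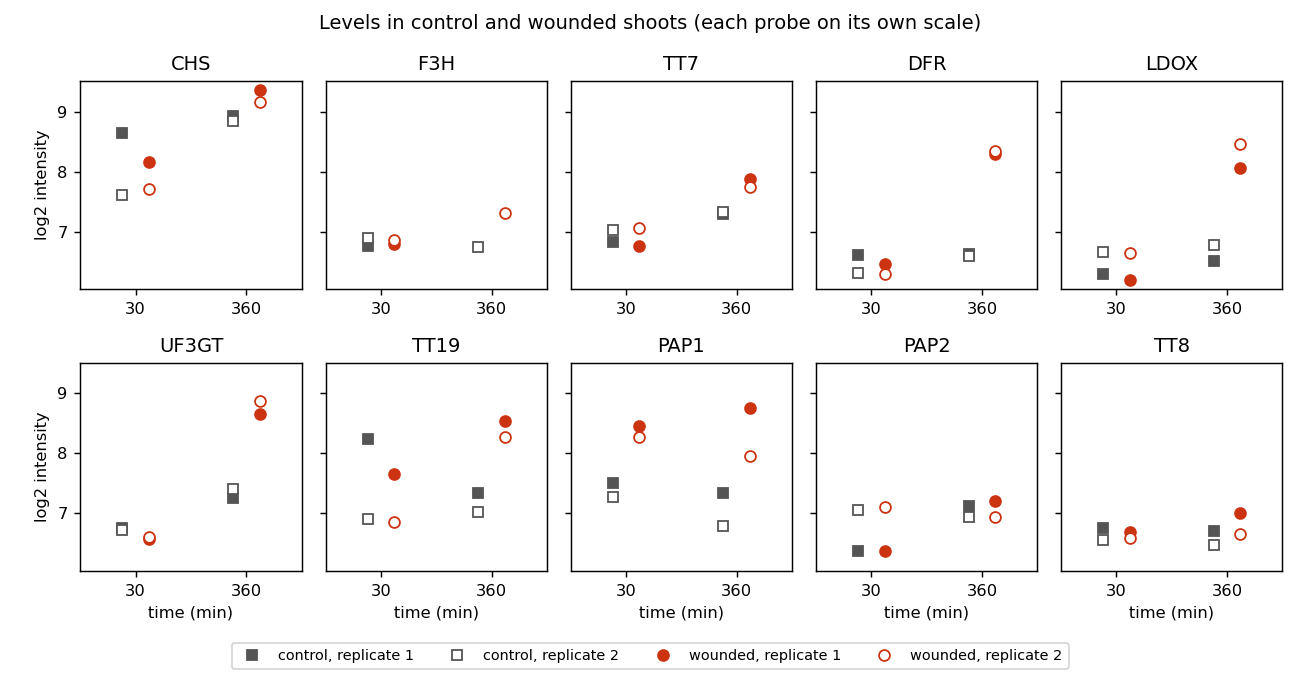
Log2 intensity of each of the 10 genes in control shoots (squares) and wounded shoots (circles) at 30 and 360 min, with replicate 1 filled and replicate 2 open; levels of different probes cannot be set against each other. DFR control levels lie between 6.32 and 6.64 and its wounded levels of 360 min at 8.29 and 8.35; CHS and TT19 controls of 30 min are spread over more than 1.

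The other genes of the pathway were read from lists chosen by role. Of 8 phenylpropanoid genes, such as the PAL genes that start the supply of precursors, 7 were tested and none was called at 30 or 360 min in limma, where 2 had an unadjusted p under 0.05 at 30 min and 0 at 360 min. Their median log2 ratio at 360 min was -0.01, with a range of -0.08 to 0.09. Of 7 genes of the proanthocyanidin branch, which makes colourless seed coat tannins, 4 were tested and none was called at either time in limma (0 at an unadjusted p under 0.05), with a range of -0.02 to 0.04 at 360 min. Thus no tested gene of the entry into the pathway or of that neighbouring branch passed. The tested genes of that branch were TT10, TT2, TT1 and TT16. The untested ones, 4CL2 of the entry and BAN, TT12 and AHA10 of the branch, did not pass the filter on dim probes. Their response is thus not known.

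Of 13 other flavonoid and anthocyanin enzyme genes, 2 were higher at 30 min and 7 at 360 min, where 4.52% and 3.08% of all genes were called higher. None of the 13 was lower, and their median log2 ratio was -0.03 and 0.26. Of the 7, AT1G03495 and AT1G03940 passed the filter on dim probes only through the wounded shoots of 360 min, where they were high, so that the filter favoured their calls. AT1G03495 was 1.82-fold higher at 360 min (0.86 ± 0.02, adjusted p = 0.00125, limma) after -0.02 at 30 min, and the log ratios of the authors' deposited table gave 2.03 for it. Its probe was well above background in 3 of 4 measurements of control shoots at 360 min, and at 30 min in 2 of 4 of control and 1 of 4 of wounded shoots. AT3G29590, annotated as the anthocyanin acyltransferase gene AT5MAT, rose 1.68-fold at 360 min (0.75 ± 0.11, adjusted p = 0.0073), a call that was lost without either 30 min replicate (adjusted p = 0.0523). Both were near 0 at 30 min and higher at 360 min, as DFR was.

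The flavonol glycosyltransferase gene UGT78D1 was higher at both times, with log2 ratios of 0.53 ± 0.08 (adjusted p = 0.00209, limma) at 30 min and 0.31 ± 0.02 (adjusted p = 0.0205) at 360 min. AT1G06000, annotated on the array as a glycosyltransferase, rose 1.80-fold at 30 min (0.85 ± 0.12, adjusted p = 0.000723) and stood at -0.02 at 360 min. Its difference between the times was -0.87 (adjusted p = 0.004), opposite in sign to those of DFR and LDOX. In control shoots the log2 level of AT1G06000 was higher at 360 than at 30 min by 0.76, which did not pass (adjusted p = 0.105, limma). With the replicate number as a block that difference was called (adjusted p = 0.0373). In wounded shoots the difference in level was -0.11 (adjusted p = 0.94). The call of UGT78D1 was lost at 30 min without 30 min replicate 2 (adjusted p = 0.0643) and at 360 min without either 30 min replicate (0.0769) or without 360 min replicate 1 (0.055).

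Of 10 other activators, 9 were on the array and 7 were tested. Of these, 0 were called at 30 min in limma (3 at an unadjusted p under 0.05). At 360 min 1 was called, as higher, where 3.08% of all genes were. PIF3, a phytochrome-interacting bHLH protein that acts positively on anthocyanin genes, had a log2 ratio of 0.14 at 30 min (adjusted p = 0.128) and rose 1.15-fold at 360 min (0.20 ± 0.03, adjusted p = 0.0404, limma), a call lost with each of the 4 replicates left out in turn (adjusted p = 0.0893 to 0.121). TTG1 and EGL3, the WD40 and a second bHLH protein of the activating complex, stood at -0.03 and 0.07 at 360 min and were not called. The log2 ratios of the 7 tested activators ranged from -0.18 to 0.20 at 360 min, all under that of PAP1.

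Of 11 repressor genes, 3 were lower at 30 min and 2 at 360 min, and none was higher, where 2.16% and 4.22% of all genes were called lower. MYBL2 fell 2.06-fold at 30 min (-1.04 ± 0.27, adjusted p = 0.00452, limma) and was at -0.02 ± 0.20 at 360 min. LBD37 fell 1.86-fold at 30 min (-0.90 ± 0.10, adjusted p = 0.00335) and stood at -0.09 at 360 min. The differences between the times were 1.02 for MYBL2 (adjusted p = 0.019) and 0.81 for LBD37 (adjusted p = 0.0182), and both calls were lost without either 30 min replicate (0.0772 to 0.176).

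LBD38 was lower at both times, at -0.29 (adjusted p = 0.0182, limma) and -0.37 (adjusted p = 0.0131), and LBD39 at 360 min, at -0.55 ± 0.20 (adjusted p = 0.0191). The 30 min calls of LBD37 and LBD38 were lost without either 30 min replicate (adjusted p = 0.0862 to 0.228), and that of MYBL2 without 30 min replicate 2 (0.0862). The 360 min calls of LBD38 and LBD39 were lost without either 30 min replicate (0.0689 and 0.091). MYBL2 also differed between the times in control shoots, where its log2 level was lower at 360 than at 30 min by a difference of -2.39 (adjusted p = 4.49e-06); in wounded shoots it was -1.38 (adjusted p = 0.000233).

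Kelch repeat F-box proteins are known to mark PAL and CHS for turnover, and 4 of 5 listed genes of this kind were lower at 30 min, where 2.16% of all genes were. AT1G23390 fell 3.09-fold (-1.63 ± 0.18, adjusted p = 0.000367, limma), KFB50 2.87-fold (-1.52 ± 0.20, adjusted p = 0.000723) and KFB20 2.84-fold (-1.50 ± 0.12, adjusted p = 0.000251). AT2G44130, named KMD3 in the annotation table, fell 1.81-fold (-0.85 ± 0.10, adjusted p = 0.00124), a call lost without 30 min replicate 1 (0.0559).

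At 360 min KFB20 and AT1G23390 were still lower, at -0.45 each (adjusted p = 0.0202 and 0.0336, limma), both lost without either 30 min replicate (0.0821 and 0.091) and AT1G23390 also without 360 min replicate 2 (0.0817). Of all genes, 4.22% were called lower at 360 min. KFB50 and AT2G44130 stood at -0.12 and 0.26 and were not called. The fifth, KFB01, stood at -0.13 at 30 min and -0.19 at 360 min and was not called. In control shoots the log2 level was lower at 360 than at 30 min for KFB20, with a difference of -1.23 (adjusted p = 0.008), and for AT1G23390, with -1.46 (adjusted p = 0.00141). In wounded shoots these differences were -0.18 and -0.28 and were not called.

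**Figure D4:**
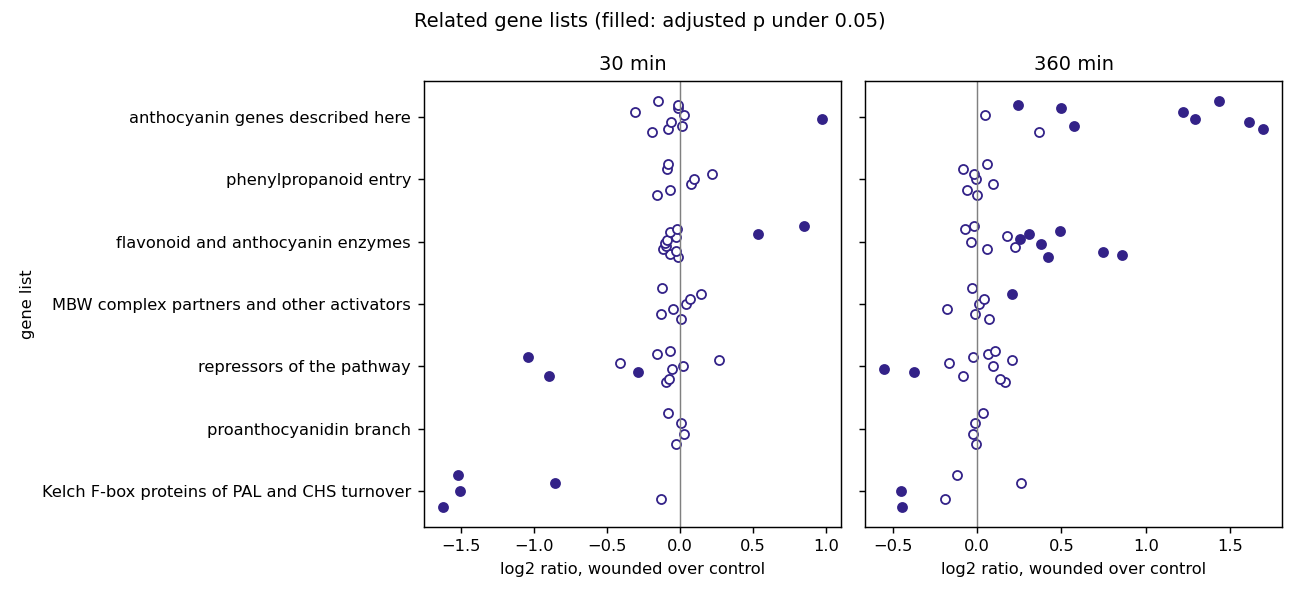
Log2 ratio of wounded over control shoots for the tested genes of each list at 30 min (left) and 360 min (right), 1 point a gene, filled where the adjusted p was under 0.05; a gene below background in both conditions of a time is left out there. The calls among Kelch F-box and repressor genes lie below 0 at 30 min, down to -1.63, and the calls among anthocyanin and other flavonoid genes lie above 0 at 360 min, up to 1.70.

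Among shoot markers none was called at 30 min and 3 of 8 were called at 360 min, 2 higher and 1 lower, with a range of -0.31 to 0.26 in log2 ratio. Of the 2 higher ones, RBCS1A was saturated in every measurement at 360 min, and LHCA3 in 1 of 4 of control and 2 of 4 of wounded shoots. Among 9 tested root markers 1 was lower at 360 min, and the range was -0.38 to 0.13. Over all genes 3.08% were called higher and 4.22% lower at 360 min. The part of the marker genes in the response of the anthocyanin genes was not tested.

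The genes with the most similar ratios were sought by the Euclidean distance of the log2 ratios over the 4 replicates, among 17435 genes with a value in each. For DFR the nearest was AT4G22870 (distance 0.26), followed by AT1G71000 (0.38), the heat stress factor gene HSFA2 (0.60), the inositol phosphate synthase gene MIPS2 (0.70) and ATERDJ3A (0.71). Among the 10 genes LDOX was nearer to DFR than any of these, at 0.13, and UF3GT lay at 0.39. The distance from DFR to TT19 was 0.81, to PAP1 1.62, to TT7 1.71, to CHS 1.92, to TT8 2.07 and to PAP2 2.34, and F3H lacked a replicate value.

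For PAP1 the nearest genes were the arginase gene ARGAH2 (0.28), the coronatine-induced gene CORI3 (0.38), AT3G28220 (0.41), the jasmonate-responsive gene JR1 (0.53) and the galactinol synthase gene GolS1 (0.54). Their log2 ratios lay between 0.73 and 1.06 at 30 min and between 1.10 and 1.27 at 360 min. None of the other 8 anthocyanin genes with all values was nearer to PAP1 than 1.56, the distance of LDOX. Likeness over 4 replicates is a description of these ratios.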

How the data were processed

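Shoots of root-wounded and unwounded seedlings were compared on 8 arrays. Per the submitters' processing notes, images were read with Agilent Feature Extraction, version 7.1.1. Deposited scanner files give linear, unnormalized mean and background intensity values of both dyes. They also hold log10 ratios of red over green, background-subtracted and dye-normalized per the file headers. The series table's log10 ratios from the authors equalled them within 0.001 on all 22575 spots of every array, which settles their scale and direction; column medians were 0 on all arrays but 2, with -0.00407 and -0.000912. The genome build is not given in the sources used here.

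Background was corrected with normexp (offset 50, which pulls dim folds toward 0), and each array was loess-normalized (limma 3.58.1, R 4.3.3). Ratios were turned to wounded over control. Outlier spots, 13 to 888 per array, were left out, and such a pair gave no value. Dye pairs were averaged. Probes were kept if over background by a multiple of 2.6 of its deviation, set per the file headers, in all 4 channel measurements of at least 1 of 4 conditions. Ratios were fitted with 1 coefficient for each time by lmFit and eBayes (2 residual degrees of freedom, prior 3.58), 2-sided, with Benjamini-Hochberg adjustment. Both times share the spread estimate, so a call at a time rests partly on replicates of the other. Each pair was extracted from its images on its own day, so that batch and replicate coincide. Levels are channel log2 intensities after loess and Aquantile. Replicate numbers were not used to pair samples across times. There are only 2 pairs, and deviations of the ratios correlated at -0.0325 for replicate 1. That check uses ratios of wounded over control, so it does not show whether channel levels pair. The number of arrays limits precision.

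Symbols came from the TAIR10.1 annotation table, where 98.6% of locus codes were found. The 10 genes, the lists and the tests were chosen with earlier results of these data known. Named from each other list are up to 4 called genes with the smallest adjusted p, and for DFR and PAP1 the 5 nearest genes. Named beside this rule, after their values were seen, are AT1G03940, KFB01, TTG1, EGL3, MYB113, MYB114 and the marker genes IRT1, RBCS1A and LHCA3. The same holds for the phenylpropanoid gene 4CL2 and the proanthocyanidin genes TT10, TT2, TT1, TT16, BAN, TT12 and AHA10. On simulated ratios of 19178 genes, log2 changes of 0.5, 1 and 2 were recovered for 68.7%, 94% and 100% at 30 min. At 360 min the rates were 64.2%, 95.5% and 100%, and there were 7 false calls at each time. Ratios were simulated, so the pull of the background offset on dim folds was not tested. The rates hold only for the simulated spread. For each gene that spread was pooled over both times and used at each, so similar rates at both times were built in. Measured calls went from 1398 to 79 with the 360 min arrays fitted alone, and from 1282 to 1680 with those of 30 min. How reliable the measured 360 min calls are is thus not shown by these rates. Alternatives changed the background correction, starting values, normalization, filter, outlier spots, prior, samples and replicates.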

Additional observations from a re-analysis of the deposited data

Results flagged for a closer look

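The difference of the log2 ratios between the times, 360 minus 30 min, passed the test (limma, adjusted p under 0.05) for 6 of the 10 anthocyanin genes and for 9 of the 13 genes named from other lists, where 7.39% of all genes were called, 2.56% more positive and 4.83% more negative at 360 min. The 13 were named because they were called at 30 or 360 min. Among the anthocyanin genes it was 1.78 for DFR, 1.68 for LDOX, 1.58 for UF3GT, 1.53 for TT19, 0.57 for F3H and 0.51 for TT7. Among the other enzyme genes it was 0.88 for AT1G03495 (adjusted p = 0.00133), 0.81 for AT3G29590 (adjusted p = 0.00823) and -0.87 for AT1G06000. AT1G03495 passed the filter on dim probes only through the wounded shoots of 360 min, so that the filter favoured its call. The call of AT3G29590 was lost without either 30 min replicate (0.0675 to 0.0878) and that of AT1G06000 without 30 min replicate 2 (0.0503). Among the repressors it was 1.02 for MYBL2 and 0.81 for LBD37, both from low values at 30 min toward 0 at 360 min. Both were lost without either 30 min replicate, and LBD37 also on the log ratios of the authors' deposited table (0.0509). Among the Kelch F-box genes it was 1.06 for KFB20 (adjusted p = 0.00402), 1.18 for AT1G23390 (adjusted p = 0.00515), 1.40 for KFB50 (adjusted p = 0.00503) and 1.11 for AT2G44130 (adjusted p = 0.00292). The calls of KFB20, AT1G23390 and KFB50 were lost without either 30 min replicate (0.0514 to 0.0711), and that of AT2G44130 without 30 min replicate 1 (0.0592).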

How the results depend on the processing

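At 360 min DFR, LDOX, UF3GT and PAP1 were called in every alternative that gave them a value, with log2 ratios of 1.29 to 2.20, 1.25 to 2.11, 1.19 to 1.68 and 1.03 to 1.62. Of the 10 genes, the number called at 360 min went from 8 to 4 on the log ratios of the authors' deposited table, to 5 with the stricter filter, which leaves out DFR, LDOX, UF3GT and PAP2, to 5 with those arrays fitted alone, and to 5 to 7 without 1 replicate. For the difference it went from 6 to 3 with the stricter filter. At 30 min it went from 1 to 2 with an offset of 10 and to 0 to 1 without 1 replicate. Over all genes the calls at 360 min went from 1398 (42.2% higher) to 710 with an offset of 10, 130 on the authors' deposited ratios (56.9% higher) and 79 with those arrays alone (68.4% higher), and for the difference from 1414 to 716 on the authors' deposited ratios. Without 1 replicate the calls over all genes ranged from 304 to 1680 at 30 min, 79 to 1317 at 360 min, 169 to 1720 for the difference, 219 to 2467 in control shoots between the times and 416 to 2709 in wounded shoots. With the replicate number as a block there were 1236 calls at 30 min, 1206 at 360 min, 1272 for the difference and 937 against 507 in control shoots, where 1 of the 10 genes was then called, as in 0 to 1 without 1 replicate; the block ended the call of TT8 at 360 min (adjusted p = 0.0701). On the authors' deposited ratios UGT78D1, AT3G29590, PIF3, LBD38, LBD39, KFB20 and AT1G23390 lost their calls at 360 min (adjusted p = 0.0596 to 0.16), as did LBD38 at 30 min (0.051; 0.0578 with median centring). The share of higher calls at 30 min was 77.3% and 87.1% without 30 min replicate 1 and 2, against 67.6%. Signs of values near 0 that were not called changed. With median centring the 30 min log2 ratio was -0.0052 for F3H, 0.0066 for TT7, 0.0166 for TT8 and 0.0085 for AT1G03495, and the difference for PAP2 was -0.0247, and -0.0308 on the authors' deposited ratios. PAP1 in wounded shoots between times was 0.0508 without background correction. Without 1 replicate the 30 min ratio ranged from -0.48 to 0.10 for CHS, -0.0269 to 0.0442 for F3H, -0.0576 to 0.032 for TT7, -0.0683 to 0.0391 for TT8, -0.16 to 0.0286 for AT3G29590 and -0.12 to 0.0061 for LBD39. The 360 min ratio ranged from -0.042 to 0.0019 for AT1G06000, -0.26 to 0.0278 for KFB50, -0.25 to 0.0808 for LBD37 and -0.17 to 0.12 for MYBL2, and the difference for PAP2 from -0.014 to 0.0556. Between the times in control shoots the range was -0.0166 to 0.34 for LDOX, -1.07 to 0.27 for TT19, -0.0345 to 0.65 for PAP2, -0.19 to 0.0459 for TT8 and -0.54 to 0.0446 for LBD39. In wounded shoots it was -0.41 to 0.39 for PAP1, -0.0353 to 0.69 for PAP2, -0.0753 to 0.0099 for PIF3 and -0.36 to 0.0005 for KFB20. Losing a replicate leaves the spread to be estimated from the replicates of the other time alone. The remaining replicate is taken to have that spread. The causes of the changes were not tested. Signal over background limits the folds of genes that were dim at 30 min.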
